A study of Homo sapiens with 16 samples.

Results

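Open chromatin was examined in the 4 HOX clusters of 2 human T-cell acute lymphoblastic leukaemia lines, DND41 and MOLT4. The assay was ATAC-seq, which uses the transposase Tn5 to cut and tag accessible DNA. The members were all deposited peaks lying in 4 windows of the hg19 build. These were chromosome 7 from 27130000 to 27260000 for HOXA, chromosome 17 from 46600000 to 46830000 for HOXB, chromosome 12 from 54320000 to 54460000 for HOXC and chromosome 2 from 176940000 to 177070000 for HOXD. A region is a run of peaks from any of the libraries joined by overlaps of 1 base or more. The windows held 49 of the 131357 regions found across the genome, made of 274 peaks. The 16 libraries formed 8 groups of 2, from DND41 and MOLT4 cells kept for 3 h or 24 h in the solvent DMSO or in ACBI-1 at 100 nM. Both lines are established cultures, and no genotype or other agent was named in the labels. Separate cultures for the 2 members of a group are not stated in the labels, and the p-values below therefore measure the spread between libraries, which may be technical.

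HOX genes encode homeodomain transcription factors that give cells their position along the body axis, and they lie in 4 clusters in which gene order follows the order of use. Outside their domains the clusters are held silent by Polycomb proteins, and the SWI/SNF (BAF) chromatin remodelling complexes act against that silencing. ACBI-1 is a degrader that joins the SWI/SNF subunits SMARCA2, SMARCA4 and PBRM1 to the VHL ubiquitin ligase. In T-cell leukaemia, genes of the HOXA cluster are known to be switched on in some genetic subtypes.

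The 39 HOX genes were 11 in HOXA, 10 in HOXB, 9 in HOXC and 9 in HOXD. In the direction of rising coordinate HOXA ended at HOXA13, and the others ran from HOXB1 to HOXB13, from HOXC13 to HOXC4 and from HOXD13 to HOXD1, in the RefSeq annotation of GRCh38.p14. For placing regions, only this order was taken from that build. No gene positions on hg19 were used here, so a region is placed by its distance from the start of its window and by the end of the cluster it is nearer to, and no region is assigned to a gene or promoter. For the same reason the marker genes of T cells were not examined.

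The RefSeq promoter table held 26 start sites of HOX genes and did not list all 39 genes. Most of the starts lay in HOXA and HOXD, several at HOXA3 alone, and few in HOXB or HOXC. CpG-rich promoters are commonly open in cultured cells, so CG dinucleotides were counted in the 250 bases before each start. The motif reads the same on both strands. The median was 19.5 at the HOX starts and 11 over 35116 promoters, and at least 1 CG was present at 96.2% and 93.9% of them. The number of CG ran from 0, at 1 of the HOXA3 starts, to 40 at HOXA13, the most of any HOX start. Of the HOX starts, 2 promoters are printed, HOXA13 with 40 CG and HOXD4 with 4, the fewest among HOX genes with 1 listed start. Both are from GRCh38.p14, HOXA13 on the minus strand of chromosome 7 and HOXD4 on the plus strand of chromosome 2, written 5′ to 3′ with each CG in capitals.
HOXA13: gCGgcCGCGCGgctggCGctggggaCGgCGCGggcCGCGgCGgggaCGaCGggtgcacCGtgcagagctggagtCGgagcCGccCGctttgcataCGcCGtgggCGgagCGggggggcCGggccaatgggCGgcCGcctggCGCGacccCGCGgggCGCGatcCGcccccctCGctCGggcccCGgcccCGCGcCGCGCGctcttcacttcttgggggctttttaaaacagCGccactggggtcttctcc
HOXD4: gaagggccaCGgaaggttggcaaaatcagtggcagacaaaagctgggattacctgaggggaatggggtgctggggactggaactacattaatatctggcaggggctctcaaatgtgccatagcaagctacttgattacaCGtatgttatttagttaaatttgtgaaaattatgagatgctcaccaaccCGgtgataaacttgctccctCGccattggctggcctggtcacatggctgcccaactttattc
Whether a peak lies over either promoter was not tested.

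The peak lists held between 39117 and 46712 peaks with DMSO and between 26145 and 33870 with ACBI-1, after leaving out 38 to 104 peaks per library on other sequences. The mean was 37156 ± 7550 (SD, n = 8) in DND41 and 36106 ± 6202 (SD, n = 8) in MOLT4. Read depth is unknown. The line named in the sample title matched the code inside the peak names in 16 of 16 libraries, while another label field named the other line in 8, and titles were used. Peak names carried 1 tag in every 24 h library and another in every 3 h library, so an effect of time and one of whatever the tag stands for cannot be told apart.

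Peaks covered a small part of each cluster. Bases under a peak in any library made up 4.99% of the HOXA window (6482 bp), 2.28% of HOXB (5240 bp), 3.94% of HOXC (5516 bp) and 7.28% of HOXD (9460 bp). HOXA held 12 regions, HOXB 11, HOXC 13 and HOXD 13, and no region crossed the edge of a window. Of the 49 regions, 16 (32.7%) were found in 1 library, against 51.0% of all regions, and 6 (12.2%) in all 16, against 9.16%. The 6 constant regions were 2 in HOXA, 1 in HOXC and 3 in HOXD, and HOXB had none. Of the 16 regions of 1 library, 13 came from MOLT4 and 3 from DND41, and 11 came from ACBI-1 libraries and 5 from DMSO libraries. Most of the 16 came from a single group, MOLT4 with ACBI-1 at 24 h. The same splits were not counted over all regions.

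**Figure D1:**
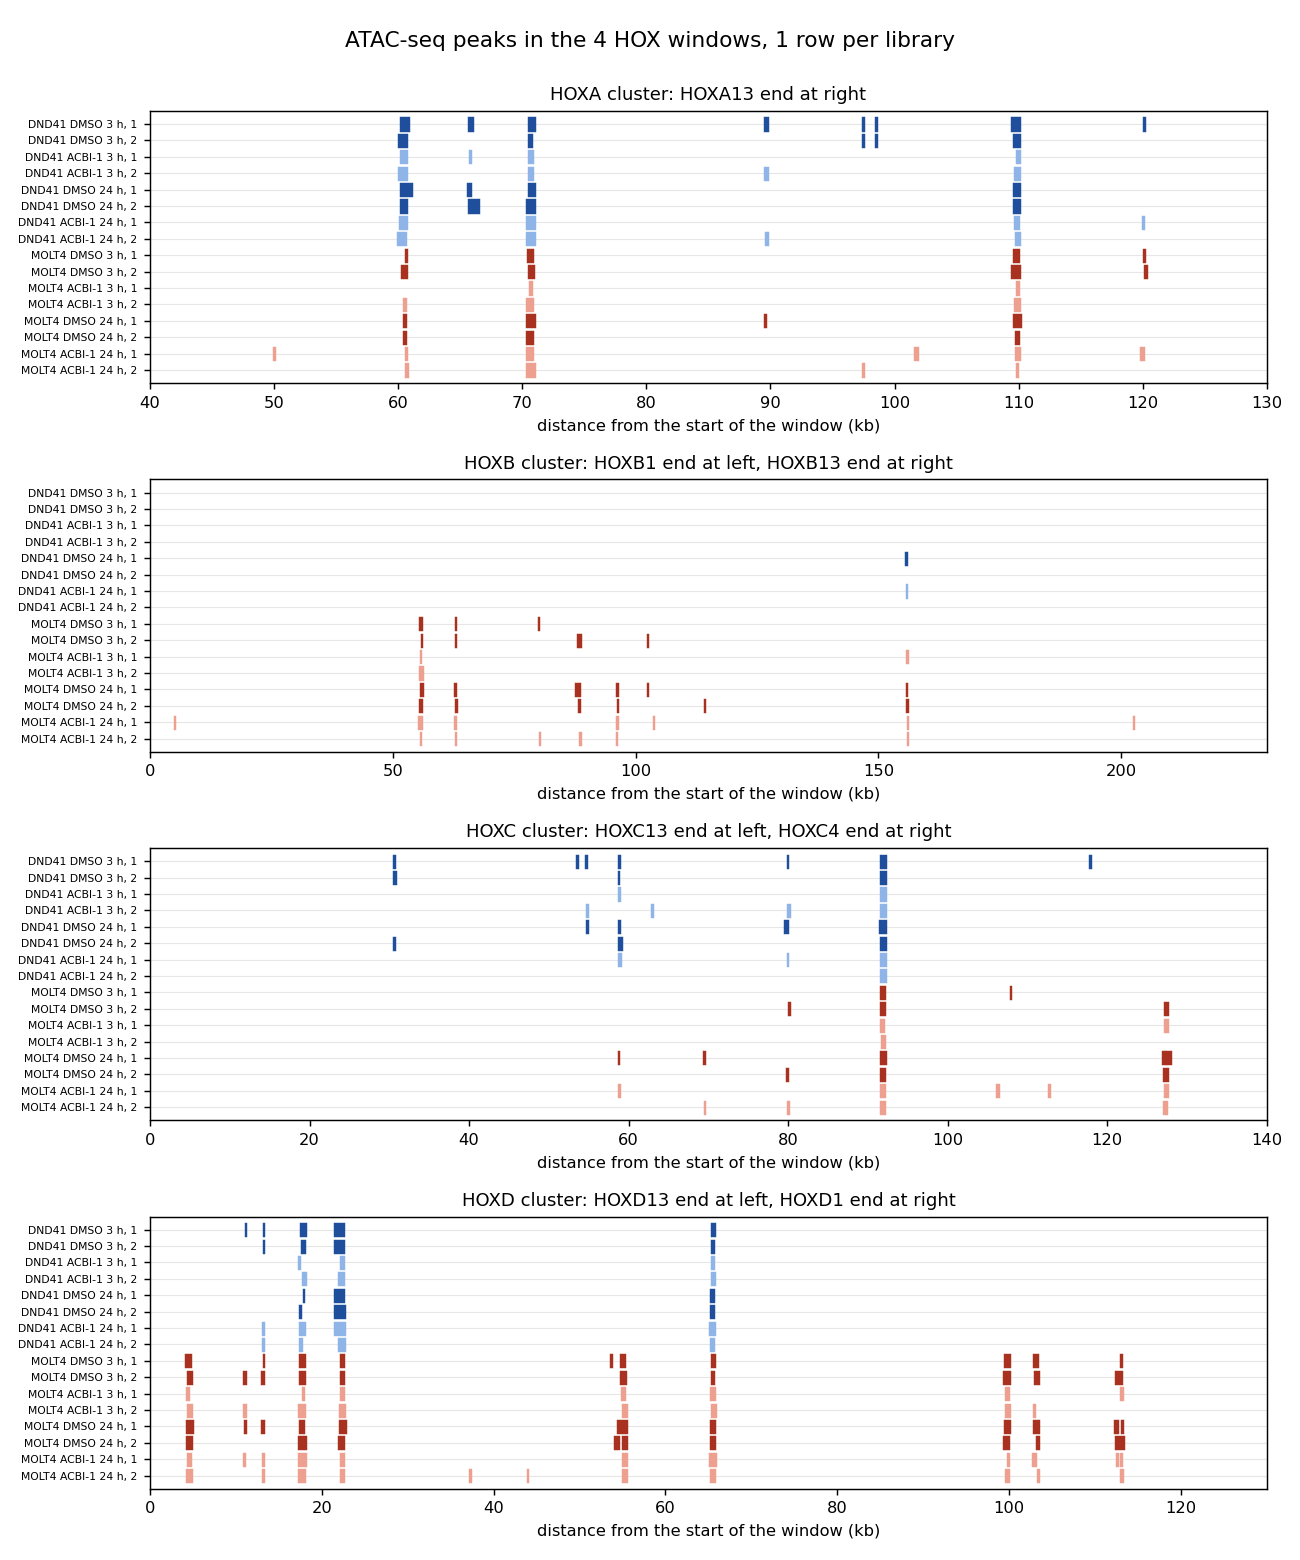
Peaks in the 4 HOX windows, with 1 row per library and the distance from the start of the window (kb) on the horizontal axis, HOXA being drawn from 40 kb. DND41 rows are blue and MOLT4 rows red, dark for DMSO and light for ACBI-1. HOXB and the HOXD1 end of HOXD are nearly empty in the DND41 rows and carry peaks in the MOLT4 rows.

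The clusters differed between the lines mainly in HOXD and HOXB. A HOXD peak was found in 3 to 5 regions of a DND41 library (mean 3.63 ± 0.74, SD, n = 8) and in 7 to 11 regions of a MOLT4 library (9.25 ± 1.39, SD, n = 8), and these ranges did not overlap. In HOXB the range was 0 to 1 region in DND41 (0.25 ± 0.46, SD, n = 8) and 1 to 7 in MOLT4 (4.38 ± 2.20, SD, n = 8). HOXA had similar numbers, 4 to 8 regions in DND41 (4.63 ± 1.41, SD, n = 8) and 3 to 7 in MOLT4 (4.88 ± 1.25, SD, n = 8). HOXC ranged from 1 to 7 regions in DND41 (3.38 ± 1.77, SD, n = 8) and from 1 to 5 in MOLT4 (3 ± 1.31, SD, n = 8). These totals are descriptions and were not tested. With each list cut to its 26145 widest peaks, the mean difference between MOLT4 and DND41 was 5.25 regions in HOXD and 3.25 in HOXB. With the lists as deposited it was 5.63 and 4.13.

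**Figure D2:**
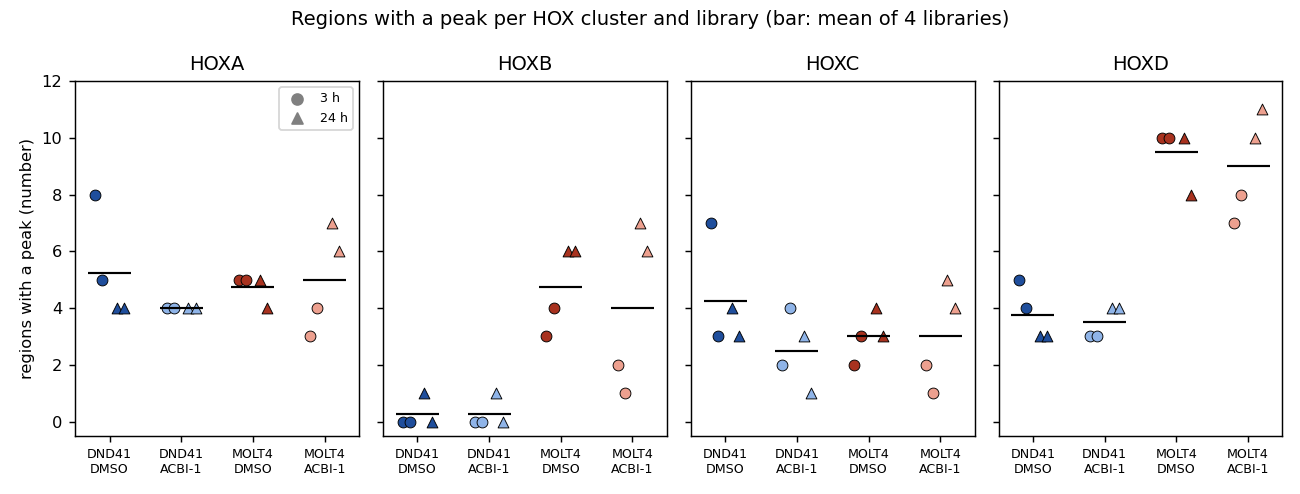
Number of regions with a peak in each HOX cluster, 1 point per library (circles 3 h, triangles 24 h), with a bar at the mean of the 4 libraries of each line and treatment. The MOLT4 points lie above the DND41 points throughout HOXD, from 7 to 11 against 3 to 5, while HOXA and HOXC overlap.

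The empty stretches followed the same division. In DND41 no library had a peak in the first 155.6 kb of the HOXB window, from the HOXB1 end, or in the last 64.2 kb of the HOXD window, at the HOXD1 end. In MOLT4 the longest stretch without a peak was 50.2 kb in HOXB and 33.5 kb in HOXD. HOXC was the reverse at its HOXC13 end, where the stretch without a peak was 58.6 kb in MOLT4 and 30.4 kb in DND41. Bases under a peak in any library of the line came to 3327 bp in DND41 and 9041 bp in MOLT4 for HOXD, and to 381 bp and 5080 bp for HOXB.

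Presence of a peak was compared between the lines for each region with a 2-sided exact permutation test, exchanging labels within time and treatment, with Benjamini-Hochberg adjustment over all 11709 regions of the genome that could reach p = 0.05. Of the 49 HOX regions 12 could be tested. With an adjusted p under 0.05 as the threshold, 9 of these had more MOLT4 libraries and 0 had more DND41 libraries. The shares across the genome were 40.8% of tested regions toward MOLT4 and 23.3% toward DND41. By cluster, 5 of 6 tested regions were called in HOXD, 2 of 2 in HOXB and 1 of 3 in HOXC. In the strictest pattern, 5 of the 49 HOX regions (10.2%) had a peak in all 8 MOLT4 libraries and in none of 8 DND41 libraries, against 0.945% of all regions, and 0 had the reverse, against 0.291%. Only MOLT4 libraries had a peak in 27 HOX regions (55.1%, against 27.6% of all regions) and only DND41 libraries in 7 (14.3%, against 40.6%).

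**Figure D3:**
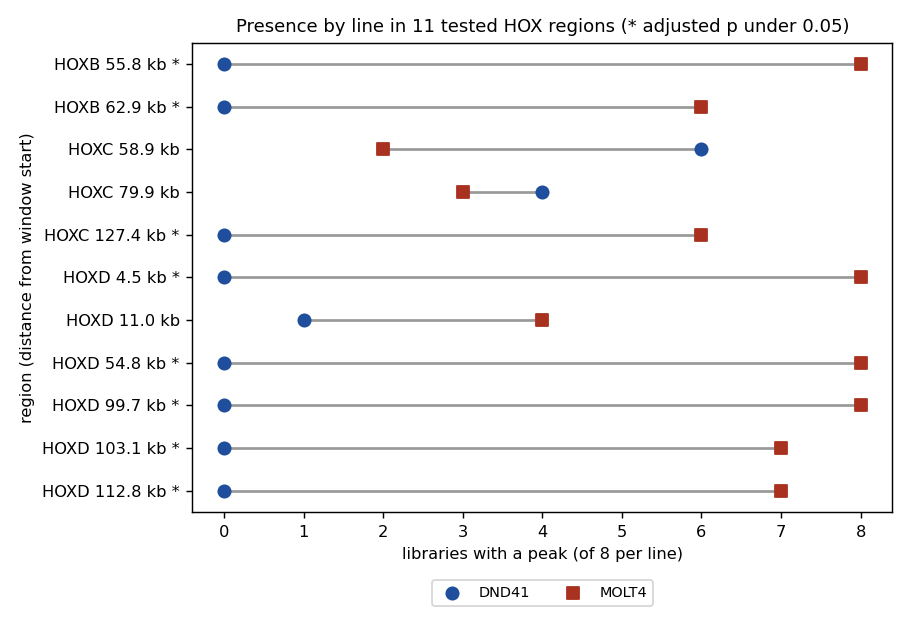
Libraries with a peak, of 8 per line, for 11 of the HOX regions that could be tested, named by cluster and distance from the window start (DND41 circles, MOLT4 squares, an asterisk marks an adjusted p under 0.05). In the 8 marked regions DND41 sits at 0 and MOLT4 between 6 and 8.

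HOXD held 3 of the regions found throughout MOLT4 and absent from the DND41 lists, and they were spread over the window. The first, nearest the HOXD13 end at 4.55 kb (chromosome 2 from 176944117 to 176944975), had MOLT4 widths of 711 and 559 bp with DMSO at 3 h, 367 and 550 bp with ACBI-1 at 3 h, 799 and 656 bp with DMSO at 24 h, and 524 and 689 bp with ACBI-1 at 24 h. HOXD13 is needed for limb digits and the urogenital tract. The region at 54.8 kb (176994067 to 176995551) had 617 and 649 bp with DMSO at 3 h, 403 and 503 bp with ACBI-1 at 3 h, 1163 and 1139 bp with DMSO at 24 h, and 555 and 581 bp with ACBI-1 at 24 h. It held the most covered bases of any HOX region in a MOLT4 library, and within MOLT4 every ACBI-1 value lay below every DMSO value. The region at 99.7 kb, toward the HOXD1 end (177039330 to 177040117), had 670 and 708 bp with DMSO at 3 h, 502 and 582 bp with ACBI-1 at 3 h, 697 and 631 bp with DMSO at 24 h, and 270 and 534 bp with ACBI-1 at 24 h. There too the 2 treatments did not overlap within MOLT4. In each of the 3 regions the exact permutation test between lines gave p = 0.00154, the smallest it allows, and an adjusted p of 0.0111.

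A further 2 HOXD regions, both near the HOXD1 end, were called with a peak in 7 of 8 MOLT4 libraries and 0 of 8 DND41 libraries (exact permutation p = 0.00463, adjusted p = 0.0184). HOXD1 belongs to the early, anterior set of HOX genes. The region at 103.1 kb (177042675 to 177043520) was missing from 1 MOLT4 library, with ACBI-1 at 3 h, and measured 229 to 736 bp in the other 7, with a median of 410 bp. The region at 112.8 kb (177052256 to 177053346) was missing from the other ACBI-1 library at 3 h and measured 246 to 1048 bp, with a median of 455 bp. No DND41 library had a peak beyond 65.8 kb in this window.

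In HOXB the called regions lay at 55.8 kb and 62.9 kb. The first (chromosome 17 from 46655249 to 46656274) had MOLT4 widths of 694 and 254 bp with DMSO at 3 h, 281 and 754 bp with ACBI-1 at 3 h, 741 and 711 bp with DMSO at 24 h, and 853 and 311 bp with ACBI-1 at 24 h, and no DND41 peak (exact permutation p = 0.00154, adjusted p = 0.0111). The treatments overlapped fully in it. The second (46662670 to 46663145) had 400 and 155 bp with DMSO at 3 h, no peak with ACBI-1 at 3 h, 442 and 361 bp with DMSO at 24 h, and 453 and 213 bp with ACBI-1 at 24 h (exact permutation p = 0.00926, adjusted p = 0.0267). The only HOXB region with any DND41 peak lay at 155.9 kb, toward the HOXB13 end (46755557 to 46756148). It was 381 bp wide in 1 DND41 library with DMSO at 24 h and 187 bp in 1 with ACBI-1 at 24 h, and 193 to 292 bp in 5 MOLT4 libraries. A broad MOLT4 region at 88.1 kb (46687615 to 46688671) had widths of 472 to 772 bp in 3 DMSO libraries and 280 bp in 1 ACBI-1 library, too few libraries for the test.

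HOXA showed a line difference in width. It lay in the region at 60.5 kb (chromosome 7 from 27189896 to 27191081), which was broader in DND41. That line had 751 and 739 bp with DMSO at 3 h, 576 and 714 bp with ACBI-1 at 3 h, 950 and 603 bp with DMSO at 24 h, and 655 and 769 bp with ACBI-1 at 24 h. MOLT4 had 221 and 410 bp, no peak and 272 bp, 278 and 254 bp, and 170 and 277 bp in the same order of groups. The lines did not overlap, and the 15 libraries with a peak shared a core of 118 bp. A limma fit over the 18405 regions with a peak in at least 12 libraries, with the library lacking a peak treated as missing, gave a log2 width difference of −1.47 (SE 0.23, adjusted p = 0.00969) with DMSO, a change of −63.9% in MOLT4. In that fit 2.54% of all regions were called narrower in MOLT4. The exact permutation of covered bases with DMSO gave a difference of −470 bp and p = 0.0556, the smallest it allows.

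A neighbouring HOXA region at 66.0 kb (27195577 to 27196499) had peaks only in DND41. Its widths were 376 bp in 1 DMSO library at 3 h, 333 and 850 bp with DMSO at 24 h, and 170 bp in 1 ACBI-1 library at 3 h. With 4 libraries it could not be tested with all 16 lists, and it was called more often in DND41 when DND41 replicate 2 with DMSO or with ACBI-1 at 3 h was left out. HOXA9 and HOXA10, in the order of the cluster just before HOXA11 and HOXA13, are the HOXA genes best known from leukaemia, and neither is assigned to a region here.

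In HOXC 1 region was called, at 127.4 kb near the HOXC4 end (chromosome 12 from 54446867 to 54447973). MOLT4 had 421 bp in 1 DMSO library at 3 h, 591 bp in 1 ACBI-1 library at 3 h, 932 and 708 bp with DMSO at 24 h, and 450 and 509 bp with ACBI-1 at 24 h, against no peak in DND41 (exact permutation p = 0.0139, adjusted p = 0.0311). HOXC4 is a HOXC gene expressed in lymphoid cells. Toward the HOXC13 end the balance was the other way, without a call. The region at 58.9 kb (54378631 to 54379108) had a peak in 6 DND41 and 2 MOLT4 libraries (exact permutation p = 0.153, adjusted p = 0.201). The region at 30.6 kb (54350418 to 54350826) had peaks of 265, 346 and 172 bp in 3 DND41 libraries with DMSO and in none of the other 13.

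The 6 constant regions had a peak in every library, so their difference could lie only in width. Width was compared with limma on log2 covered bases, centred on each library's median over the 12037 regions present in all 16 libraries, with adjustment over those regions. Between the lines with DMSO 1 of the 6 HOX regions was called, narrower in MOLT4, against 1.51% of all regions called in either direction and 0.706% called narrower in MOLT4. It lay at 22.1 kb in HOXD, toward the HOXD13 end (176961420 to 176962783). DND41 had 1181 and 1219 bp with DMSO at 3 h and 1203 and 1278 bp at 24 h, and MOLT4 had 491 and 452 bp at 3 h and 726 and 755 bp at 24 h. The log2 difference was −1.11 (SE 0.13, adjusted p = 0.00385), a change of −53.6% in MOLT4. The shape shows where the bases differed. DND41 peaks with DMSO began 1 to 21 bp from the region's first base and MOLT4 peaks 420 to 677 bp from it, while the peaks ended at 1181 to 1298 bp in DND41 and at 1128 to 1364 bp in MOLT4. All 16 libraries shared a core of 382 bp.

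The other constant regions did not pass the test between lines. The HOXC region at 91.8 kb (54411442 to 54412255) was the most uniform, with widths of 687 to 785 bp in DND41 (median 728 bp) and 488 to 758 bp in MOLT4 (median 665.5 bp) and a shared core of 370 bp. The HOXD region at 17.7 kb (176957241 to 176958198) was the least uniform, from 176 to 723 bp in DND41 and from 200 to 957 bp in MOLT4, and no base of it was covered in all 16 libraries. Its log2 difference between lines was 0.90 (SE 0.35, adjusted p = 0.249 in limma). The HOXD region at 65.5 kb (177005063 to 177005872) measured 339 to 684 bp in DND41 and 426 to 773 bp in MOLT4. In HOXA the region at 70.7 kb (27200278 to 27201022) measured 376 to 704 bp in DND41 and 295 to 734 bp in MOLT4, with a difference of −0.04 (SE 0.17) on the log2 scale. The region at 109.8 kb, at the HOXA13 end (27239360 to 27240152), measured 314 to 733 bp in DND41 and 199 to 732 bp in MOLT4.

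**Figure D4:**
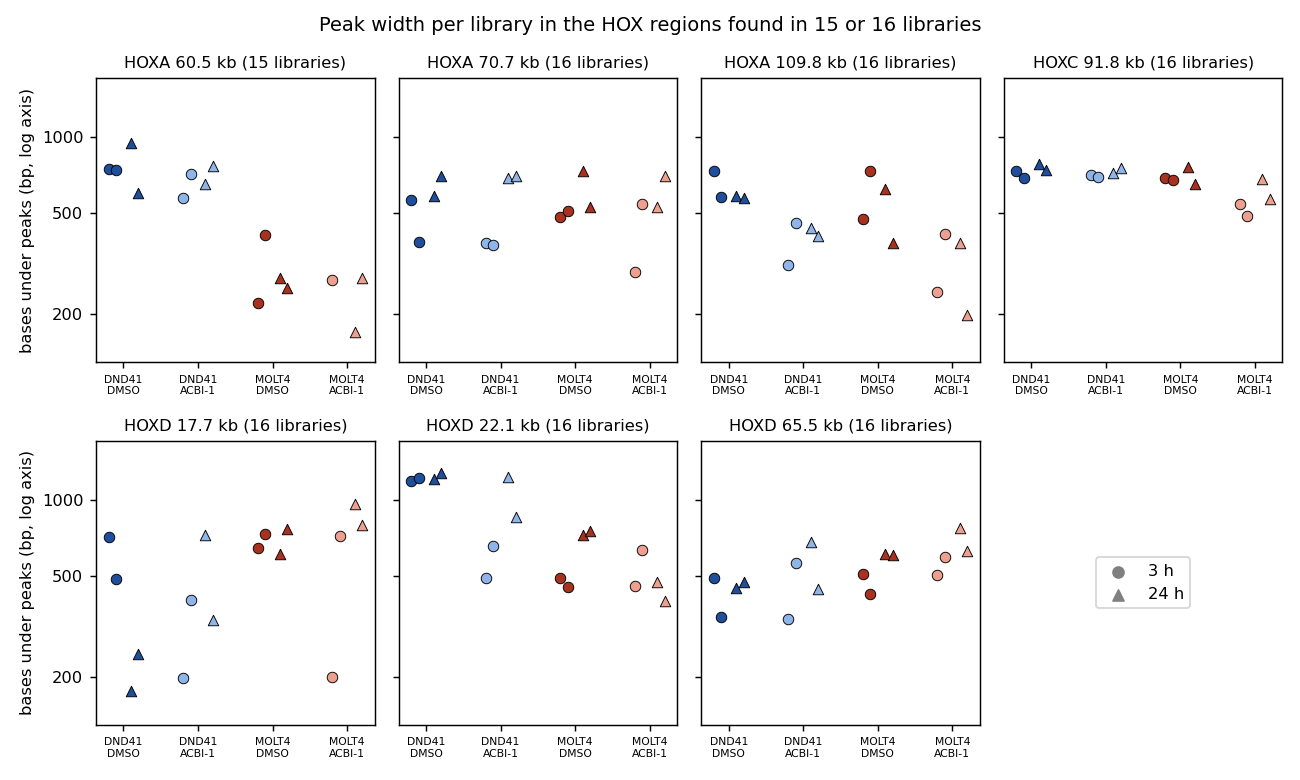
Bases under peaks (bp, log axis) in each library for the 7 HOX regions found in 15 or 16 libraries, by line and treatment (circles 3 h, triangles 24 h). The lines separate in the HOXA region at 60.5 kb and, with DMSO, in the HOXD region at 22.1 kb, while the HOXC region at 91.8 kb varies least.

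Most HOX regions seen with DMSO were also seen with ACBI-1, and the presence test had little reach in these windows. Presence could be tested in only 4 of the 49 regions, since the other 45 had too few or too evenly spread peaks to reach p = 0.05, and 0 of the 4 were called by the exact permutation test, with 0 at an unadjusted p under 0.05 and a smallest adjusted p of 1. Across the genome 27.9% of 8082 tested regions were called lost with ACBI-1 and 0.111% gained. That count rested on the full set of libraries. It fell from 2251 lost regions to between 0 and 1110 when any of the 16 libraries was left out. For 7 of them it was 0. With a replicate block it was 2260 of 3024, and with merging at 100 shared bases 2265 of 7939. A minimum peak width gave 713 of 7188, and leaving out the strata gave 846 of 20819. With each list cut to its 26145 widest peaks, the count was 0 of 4385, with 0 gained. The deposited ACBI-1 lists were shorter than the DMSO lists, so this cut took more peaks, the narrowest, from the DMSO lists. By number of libraries, 16 HOX regions had as many DMSO as ACBI-1 libraries, 21 had more DMSO and 12 more ACBI-1 libraries. Of those 12 regions, 11 were found in 1 library only. The difference between treatments was at most 1 library in 42 of the 49 regions. Regions found in 1, 15 or 16 libraries could not differ by more. These counts by number of libraries were not made over all regions. The largest excess of DMSO, 3 libraries, was that of the HOXC region at 30.6 kb. The HOXA region at 98.5 kb and the HOXB region at 102.5 kb each had a peak in 2 DMSO and 0 ACBI-1 libraries. For the HOXC region at 79.9 kb these numbers were 4 and 3, and for the HOXD region at 13.1 kb 5 and 4. In DND41 the latter had a peak in both DMSO libraries and no ACBI-1 library at 3 h, and the reverse at 24 h.

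Regions found in both DMSO libraries of a line and time were followed into the matching ACBI-1 libraries. Counting each region once for each line and time gave 57 cases in HOX, so a region could enter up to 4 times. Of these 43 kept a peak in both ACBI-1 libraries, 6 in 1 and 8 (14.0%) in none, against 24.3% of 125587 cases over all regions with a peak in none. The 8 cases were 4 of 12 in DND41 at 3 h, 1 of 9 in DND41 at 24 h, 3 of 17 in MOLT4 at 3 h and 0 of 19 in MOLT4 at 24 h. Over all regions the shares were 20.9%, 27.1%, 22.2% and 27.7%. Of the 57 HOX cases, 40 were wider than the median for their line and time. The 6 constant regions entered 4 times each. Among those 40 the share without an ACBI-1 peak was 2.50%, against 4.98% over all regions wider than the median, and among the other 17 it was 41.2%, against 43.6%. This last figure pooled unlike times. The narrower HOX cases without an ACBI-1 peak were 7 of 9 at 3 h (77.8%, against 40.1% over all regions) and 0 of 8 at 24 h (against 47.6%). No test was run on these shares.

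**Figure D5:**
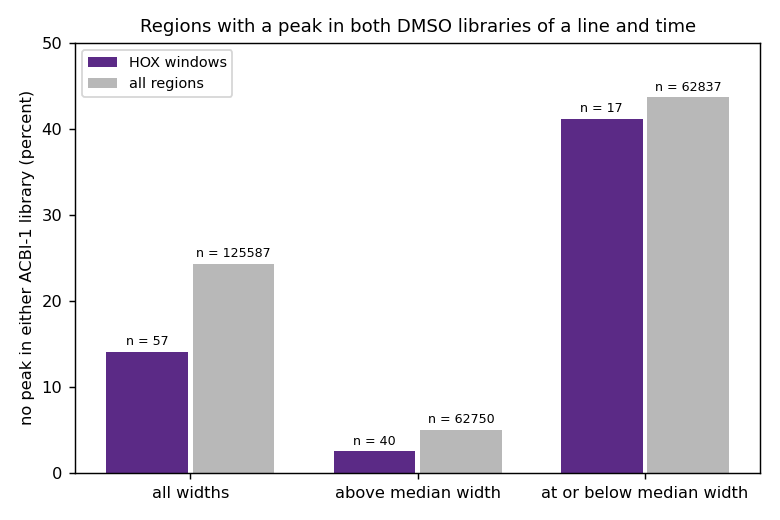
Share (percent) of the regions that both DMSO lists of a line and time contained and that had no peak in either ACBI-1 library, for HOX windows (purple) and all regions (grey), overall and split at the median DMSO width of the line and time. The overall shares were 14.0% and 24.3%, and the wider regions have the lower share in both sets. Both times are pooled.

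The width of the 6 constant regions gave 0 calls for ACBI-1 against DMSO in limma, against 1.67% of all regions called. At an unadjusted p under 0.05 there were 3 of the 6 HOX regions and 16.6% of all regions. At the HOXA13 end the region at 109.8 kb had DND41 widths of 733, 580, 586 and 574 bp with DMSO and 314, 458, 438 and 407 bp with ACBI-1, which did not overlap. In MOLT4 they were 474, 732, 626 and 383 bp with DMSO and 246, 415, 383 and 199 bp with ACBI-1. The log2 difference was −0.61 (SE 0.16, adjusted p = 0.0846). How many of all regions separated by treatment within DND41, as this one did, was not counted. HOXA13 is the most posterior gene of its cluster. The HOXD region at 22.1 kb had a log2 difference of −0.35 (SE 0.09, adjusted p = 0.086), and its groups differed in sign. DND41 had 1181 and 1219 bp with DMSO and 490 and 658 bp with ACBI-1 at 3 h, and 1203 and 1278 bp against 1224 and 853 bp at 24 h. MOLT4 had 491 and 452 bp against 456 and 631 bp at 3 h, and 726 and 755 bp against 472 and 399 bp at 24 h. At 3 h the log2 difference was −0.98 in DND41 and 0.30 in MOLT4. At 24 h these values were −0.12 and −0.62. The HOXD region at 65.5 kb had 0.33 (SE 0.11, adjusted p = 0.166). The HOXC region at 91.8 kb had −0.03 (SE 0.07, adjusted p = 0.85) and the HOXA region at 70.7 kb 0.00 (SE 0.12, adjusted p = 0.998).

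The count of calls for ACBI-1 depended on the scaling. Without centring, which moved the median of all regions by −0.13 on the log2 scale, the HOXD region at 22.1 kb (adjusted p = 0.0265) and the HOXA region at 109.8 kb (adjusted p = 0.0436) were called narrower with ACBI-1. When covered bases were compared by exact permutation, counting 0 where there was no peak, the HOXA region at 109.8 kb was called lower, with a difference of −228.5 bp (p = 0.00309, adjusted p = 0.0474), 1 of the 26 HOX regions found in at least 4 libraries, and 9.68% of all regions were called lower. Covered bases were lower with ACBI-1 in 23 of these 26 regions (88.5%, median −64.2 bp) and in 82.3% of all 45121 such regions (median −88.6 bp). The 2 MOLT4 regions of HOXD whose treatments did not overlap, at 54.8 and 99.7 kb, were noticed after their values were seen. How many of all regions separated in this way within MOLT4 was not counted. Within MOLT4 the mean covered bases with ACBI-1 minus DMSO were −381.5 and −204.5 bp. With no DND41 peak in either region, the exact permutation test could not go below p = 0.0556, the value both gave, so it could not call them.

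The ACBI-1 effect on width was compared directly between lines and between times. For MOLT4 minus DND41 limma called 0 of the 6 HOX regions and 0% of all regions. For 24 h minus 3 h it also called 0 of the 6, and 0% of all regions. The HOXD region at 17.7 kb had the greatest difference between times, 1.81 (SE 0.50, adjusted p = 0.271), with DND41 widths of 714 and 489 bp with DMSO and 198 and 404 bp with ACBI-1 at 3 h, and of 176 and 246 bp with DMSO and 723 and 335 bp with ACBI-1 at 24 h.

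Between 24 h and 3 h, 5 HOX regions could be tested for presence and 0 were called by exact permutation, as 0% of 3762 regions were across the genome. The HOXB region at 155.9 kb had a peak in 6 of 8 libraries at 24 h and in 1 of 8 at 3 h (exact permutation p = 0.0417, adjusted p = 0.266). It was the only 1 of the 5 at an unadjusted p under 0.05, a level that 15.7% of all tested regions reached. In MOLT4 the HOXB region at 96.1 kb (46695924 to 46696360) was found in all 4 libraries at 24 h, with widths of 321, 230, 306 and 258 bp, and in none at 3 h, too few libraries for the test. That region was picked after its values were seen. How many of all regions split by time in this way within MOLT4 was not counted. HOXB as a whole had peaks in 3 and 4 regions with DMSO and 2 and 1 with ACBI-1 in MOLT4 at 3 h, and in 6 and 6 with DMSO and 7 and 6 with ACBI-1 at 24 h. Mean list length was 43054 peaks with DMSO and 29451 with ACBI-1 at 3 h, and 42048 and 31970 at 24 h, over both lines. Its part in the HOXB counts was not tested, and the peak name tag differs between the times as well. Width with DMSO gave 0 calls among the 6 constant HOX regions for 24 h against 3 h in limma, against 0.432% of all regions called. At an unadjusted p under 0.05 there was 1 of the 6, near the 19.6% over all regions. That was the HOXD region at 17.7 kb, with −1.02 (SE 0.35, adjusted p = 0.162).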

How the data were processed

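The 16 ATAC-seq libraries were deposited as 1 peak list each. MACS2 2.1.1.2016030, Bowtie2, SAMtools and Picard are the tools, and hg19 the build, in the submitters' processing notes, which give no role or setting here. The lists the authors deposited have 4 columns, and only their base positions, a coordinate unit of no other kind, were used. They carry no score or count, so depth is unknown and no counting interval is given. From the positions, peaks on chromosomes 1 to 22 and X sharing at least 1 base were merged across libraries. Presence was tested by 2-sided exact permutation over 1296 label exchanges in 4 strata, and log2 covered bases by limma 3.58.1 in R 4.3.3, both over the whole genome with Benjamini-Hochberg adjustment and a threshold of 0.05. Other steps used Python 3.11.15, numpy 2.4.6 and pandas 2.3.3. Both tests were run on simulated data for the comparison between lines only, with independent libraries and large planted changes. The comparisons of treatment and time were not simulated. Regions described are, per window, the 3 broadest with DMSO and up to 5 called per comparison and direction. Further ones are up to 3 exclusive to 1 line and up to 3 with the greatest treatment difference. The HOXB regions at 96.1 and 155.9 kb lay outside this rule and were chosen from their values. The windows and this rule were chosen with earlier results of these data known. Alternatives were leaving out each library, a replicate block, lists of equal length, a minimum width of 170 bp and merging at 100 shared bases. Others were no strata, no centring, regions in at least 12 libraries, and permutation of covered bases in regions of at least 4 libraries. Lists of equal length kept the 26145 widest peaks of each library. Cofactor and marker gene lists were not used here. Values at 1 HOXA locus are not reported here.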

Additional observations from a re-analysis of the deposited data

How the results depend on the processing

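The 9 HOX regions called more often in MOLT4 were the same 9 regions with a replicate block, equal list lengths, a minimum width of 170 bp, merging at 100 shared bases and no strata, and leaving out a library gave 9 to 10 calls. The added call was the HOXA region at 66.0 kb, more in DND41, or the HOXB region at 88.1 kb, more in MOLT4, without MOLT4 replicate 1 with DMSO at 3 h or with ACBI-1 at 24 h. The 1 width call between lines became 2 in regions of at least 12 libraries, and 0 by permutation of covered bases, whose smallest p is 0.0556. The 0 width calls for ACBI-1 became 2 without centring, 1 by permutation of covered bases and 0 to 1 when a library was left out. That call was the HOXD region at 22.1 kb without DND41 replicate 1 with ACBI-1 at 24 h (adjusted p = 0.0436 in limma) and the HOXA region at 109.8 kb without MOLT4 replicate 1 with ACBI-1 at 24 h (adjusted p = 0.04). The HOXA region at 70.7 kb changed sign, between lines from −0.039 to 0.024 without centring and over −0.142 to 0.065 when a library was left out, and for ACBI-1 over −0.094 to 0.092. For ACBI-1 the HOXC region at 91.8 kb ranged from −0.070 to 0.0036, and the HOXD region at 17.7 kb, 0.049, from −0.164 to 0.262 and to −0.082 without centring. With equal list lengths, which kept the widest peaks, the mean number of regions with ACBI-1 minus DMSO changed sign. It went from −0.5 to 0.375 in HOXA, −0.375 to 0.25 in HOXB, −0.875 to 0.75 in HOXC and −0.375 to 0.5 in HOXD. The cause of these changes was not tested. Replicates with the same number did not deviate together (r from −0.14 to 0.01 over 12037 regions in the 4 line and time pairs), and the replicate block left 9 presence calls, 1 width call between lines and 0 for ACBI-1 and for time.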
